A study of Mus musculus with 6 samples.

Results

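To compare chemokine messages in sorted tumor samples grown with and without bone marrow-derived mesenchymal stem cells (BMSCs), 10 genes were examined: the CC chemokines Ccl2, Ccl3, Ccl5, Ccl6, Ccl7, Ccl8, Ccl9, Ccl11 and Ccl20, and fractalkine, Cx3cl1. They were picked by gene symbol from the 18182 genes in the deposited tables, and all 10 were found. Lewis lung carcinoma (LLC) is a transplantable lung tumor line of C57BL/6 mice, here carrying a red fluorescent protein (RFP). Wild type C57BL/6 mice received LLC-RFP cells under the skin, either by themselves (LLC alone, 3 libraries) or mixed with BMSCs (LLC with BMSCs, 3 libraries). RFP-positive cells were then sorted from the primary cancer sites, and their RNA was sequenced. Both groups therefore share the tumor line, the reporter, the host strain and the sort, and differ, as far as the labels say, by the BMSCs. The labels do not say whether the 3 libraries of a group came from separate mice, so the p-values measure only the spread between these libraries, which may be technical.

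Chemokines are small secreted proteins that direct the migration of leukocytes through G protein-coupled receptors. Ccl2 and Ccl7 draw monocytes through Ccr2, Ccl3 and Ccl5 attract monocytes and T cells, Ccl11 is an eosinophil attractant acting on Ccr3, and Ccl20 is the ligand of Ccr6. Fractalkine is unusual in being made as a membrane protein on a mucin stalk, from which the proteases Adam10 and Adam17 can release the soluble form, and it binds Cx3cr1. Chemokine genes are classic targets of NF-kappaB and interferon signalling, and tumor cells and stromal cells both can make them.

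The families are named after the spacing of the first conserved cysteines, and the coding sequence around these cysteines is shown for 4 genes on which the results turn, to show what joins and what separates them. The letters come from GENCODE M21 transcripts (mouse build GRCm38), run 5′ to 3′ on the coding strand, and carry the cysteine codons in capitals. In each CC gene shown the 2 codons touch, and in Cx3cl1 there are 3 codons between them. Ccl20 writes the first cysteine with another codon than Ccl2 and Ccl7 do.
Ccl2: gccccactcaccTGCTGCtactcattcacc
Ccl7: aatgcatccacaTGCTGCtatgtcaagaaa
Ccl20: agcaactacgacTGTTGCctctcgtacata
Cx3cl1: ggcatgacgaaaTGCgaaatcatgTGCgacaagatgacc

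No long stretch was shared with other genes. Over the GENCODE M21 transcripts that match the deposited ones of the 10 genes, 0 windows of 100 bases were also present in a transcript of another gene. Shorter stretches were not searched. In GRCm38 the members lie in 4 places. Ccl2, Ccl7, Ccl11 and Ccl8 lie in this order on the plus strand of chromosome 11, with Ccl12, not a member, between Ccl11 and Ccl8. Ccl5, Ccl9, Ccl6 and Ccl3 follow further along that chromosome on the minus strand. Ccl20 is on chromosome 1 and Cx3cl1 on chromosome 8.

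The libraries held 33476347 to 46189113 estimated counts each, and 13353 genes passed the filter on low counts and were tested. Within a group, LLC alone replicates 1 and 2 and LLC with BMSCs replicates 2 and 3 lay closer to each other than to the remaining library, but still further apart than counting error. LLC alone replicate 3 stood apart by transcript length, being 0.297 above the mean of all libraries (log2) among the shortest 20% of genes, while the difference was -0.382 among the longest 20%. The trend over length also separated the groups. Among the shortest 20%, LLC alone replicates 1 and 2 stood at 0.054 and 0.032, and the libraries with BMSCs at -0.186, -0.077 and -0.099. Among the longest 20% the signs were reversed. Among epithelial markers, Krt8 averaged 95.3 FPKM for LLC alone, against 110.0 FPKM with BMSCs, while Epcam, Cdh1 and Krt19 lay at or below 0.04 FPKM on average in both groups, so the labelled carcinoma showed only part of an epithelial profile. FPKM, a level corrected for transcript length and sequencing depth, is the authors' scale and is used for levels throughout.

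Of the 10 genes, 8 had enough counts to be tested, 6 were called higher and 2 lower in LLC with BMSCs (edgeR's quasi-likelihood test, adjusted p under 0.05). The same rule called 31.5% of all tested genes higher and 31.3% lower, so a call by itself was common, and the size of a change says more here than the call. The median log2 fold change was 1.63 over the 8 tested genes and 0.01 over all tested genes. Only 8.65% of all tested genes were called higher with a log2 fold change of at least 1, and the 6 that rose were all of that size. A stricter rule, an adjusted p under 0.001 together with that size, called 6 higher and 1 lower among the chemokine genes, against 6.81% and 5.41% of all tested genes. In FPKM the groups did not overlap for 9 of the 10 genes, the 8 tested ones and Ccl11, and 70.6% of all tested genes were as separate. With 3 libraries against 3, the two-sided exact permutation test cannot give a p below 0.1, and these 9 genes all stood at p = 0.1. Ccl3 and Ccl6 passed the filter through LLC with BMSCs only, since no LLC alone library had more than 4 counts of either, and such genes had to differ. The median and the counts of called genes above include both. The members were also chosen with earlier results of these data known. Setting them beside all tested genes therefore describes them and is not a test. In bulk RNA, more cells of one kind and more RNA per cell cannot be told apart.

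**Figure D1:**
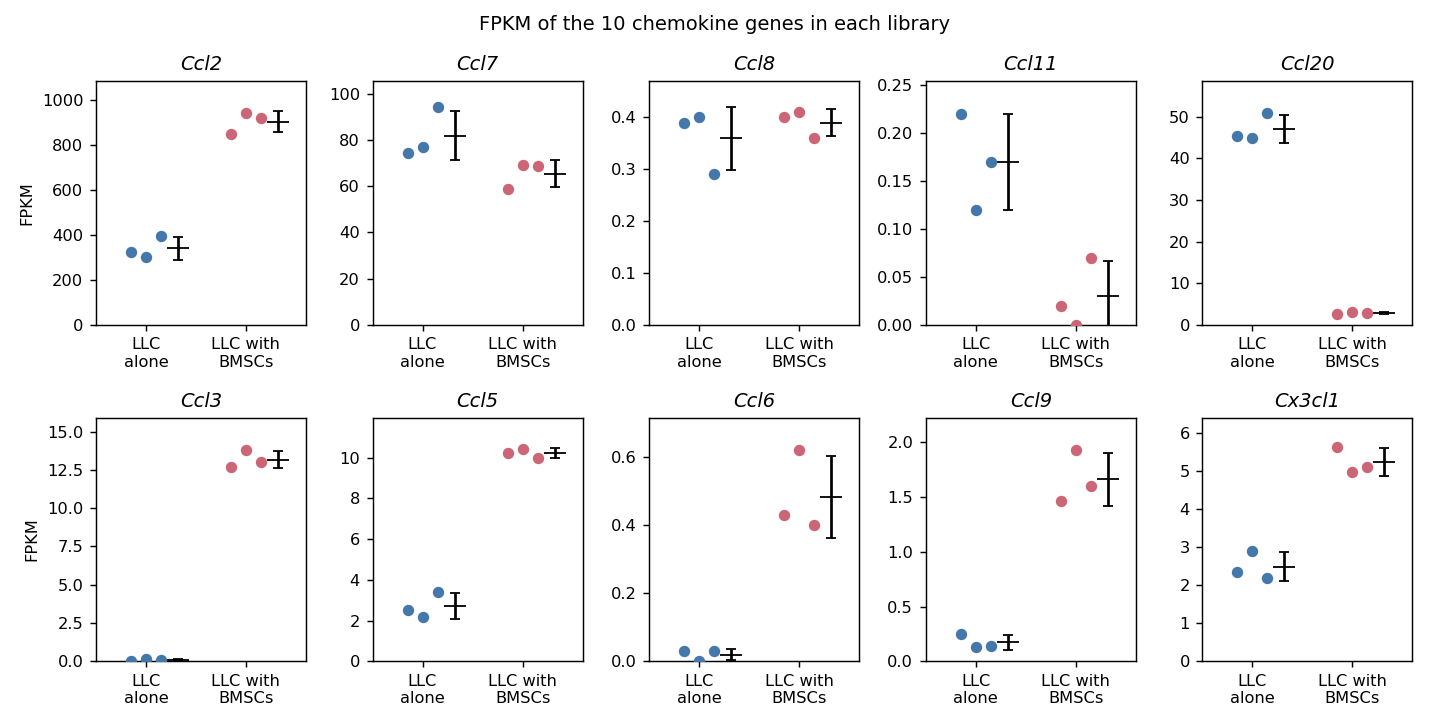
FPKM of each chemokine gene (vertical axes, each from 0 with its own scale) in the 3 libraries of LLC alone (blue) and the 3 of LLC with BMSCs (red), with the mean and SD as black bars (n = 3, that of Ccl11 in LLC with BMSCs ends at the axis). Ccl2 reaches 942.53 FPKM and Ccl11 0.22 FPKM, and of the 10 panels, that of Ccl8 is the one where the groups overlap.

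The monocyte attractants came first by level. Ccl2 was the most abundant chemokine of the 10 in both groups. It stood at 322.35, 299.94 and 394.62 FPKM for LLC alone, and at 848.88, 942.53 and 916.55 FPKM in LLC with BMSCs. Each library with BMSCs was more than double the highest one without, and the gene moved from rank 222 to rank 78 among all genes by mean FPKM. The mean went from 339 ± 49.5 to 903 ± 48.3 FPKM (SD, n = 3), and the log2 fold change was 1.39 ± 0.108 (SE, adjusted p = 2.66e-05, edgeR's quasi-likelihood test).

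Ccl7, whose gene lies next to Ccl2 and whose product shares the receptor Ccr2, did not follow it. It measured 74.32, 77.17 and 94.16 FPKM for LLC alone, against 58.56, 68.96 and 68.73 FPKM with BMSCs. The groups were separate, but by a margin smaller than the spread among the LLC alone libraries. The means were 81.9 ± 10.7 and 65.4 ± 5.94 FPKM (SD, n = 3), and the log2 fold change was -0.35 ± 0.108 (SE, adjusted p = 0.0237, edgeR's quasi-likelihood test). This call did not hold throughout. With the trend over transcript length taken out of each library, the log2 fold change was -0.03 with an adjusted p of 0.648 by the same test, without LLC with BMSCs replicate 1 it was -0.28 with an adjusted p of 0.0867, and without LLC alone replicate 3 it was -0.23 with an adjusted p of 0.0218.

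The neighbouring genes thus came apart in their proportions. The ratio of Ccl2 to Ccl7 FPKM within a library was 4.34, 3.89 and 4.19 in LLC alone and 14.5, 13.7 and 13.3 in LLC with BMSCs. No library of one group came near the other, and the mean ratio was 3.34 times larger with BMSCs (4.14 ± 0.23 against 13.8 ± 0.598, SD, n = 3, exact permutation p = 0.1, the smallest possible).

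The rest of that chromosome 11 neighbourhood was barely detected, including Ccl12 with a mean of 0 FPKM in LLC alone and 0.0167 FPKM with BMSCs. Ccl8 stood at 0.39, 0.4 and 0.29 FPKM for LLC alone, against 0.4, 0.41 and 0.36 FPKM with BMSCs. It rested on 6 to 8 counts per library and was not tested, the groups overlapped, and the ratio of summed counts was 1.08 (exact 95% interval 0.565 to 2.07, counting error only, as for the ratios that follow). A ratio within that interval was not detectable at this depth.

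Ccl11, the eosinophil attractant, went the other way at a similarly low level, with 10, 4 and 8 counts in LLC alone and 1, 0 and 3 in LLC with BMSCs. The FPKM values were 0.22, 0.12 and 0.17 against 0.02, 0 and 0.07, so the groups did not overlap, but the libraries with BMSCs were at or under the floor of 3 counts. The count ratio was 5.88 in favour of LLC alone (95% interval 2.0 to 23.5). The gene fell below the filter of the test, and without a filter edgeR's quasi-likelihood test gave an adjusted p of 0.0226.

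Ccl20, the ligand of Ccr6 and an attractant of lymphocytes and immature dendritic cells, showed the steepest drop of the set. It stood at 45.29, 44.82 and 50.85 FPKM for LLC alone, and at 2.65, 3.03 and 2.7 FPKM in LLC with BMSCs. The libraries were tight in both groups and far apart between them. The mean fell 16.8-fold, from 47.0 ± 3.35 to 2.79 ± 0.206 FPKM (SD, n = 3), with a log2 fold change of -4.09 ± 0.094 (SE, adjusted p = 1.02e-07, edgeR's quasi-likelihood test). Ccl20 thereby went from rank 1857 to rank 9441 of all genes, and from the 3rd to the 6th place among the 10. Only 7.17% of tested genes were called lower with a log2 fold change of -1 or below, and Ccl20 was the one tested member among them.

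Ccl20 was also the one member listed with 2 transcripts. They differ by 3 coding bases just ahead of the cysteine codons, and the coding sequences (GENCODE M21, from 5 codons before the insert onward) are shown to make the difference visible, with the extra codon in capitals.
Longer Ccl20: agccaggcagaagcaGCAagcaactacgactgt
Shorter Ccl20: agccaggcagaagcaagcaactacgactgt

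The longer form held 67.9%, 69.8% and 68.2% of the estimated Ccl20 counts in LLC alone and 56.1%, 66.3% and 65.7% in LLC with BMSCs. The longer form led in all 6 libraries. The groups did not overlap (68.6% ± 1.02 against 62.7% ± 5.72, SD, n = 3, exact permutation p = 0.1, the smallest possible), but the gap rested mainly on LLC with BMSCs replicate 1, and the 95% Wilson intervals of the 3 libraries with BMSCs, which held 92 to 104 Ccl20 counts, ran from 46.3% to 74.7%. The intervals treat each estimated count as a read known to come from a single form. The forms differ by 3 coding bases, so many reads cannot tell them apart, and the intervals are too narrow. By these estimates both forms shared the drop, the longer from 30.7, 31.27 and 34.63 to 1.48, 2.01 and 1.77 FPKM and the shorter from 14.59, 13.56 and 16.22 to 1.16, 1.02 and 0.93 FPKM.

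The inflammatory chemokines of the minus strand of chromosome 11, Ccl3, Ccl5, Ccl6 and Ccl9, were all higher with BMSCs. In the same libraries the leukocyte marker Ptprc averaged 0.03 FPKM without and 0.45 FPKM with BMSCs. The neutrophil marker S100a9 averaged 0.02 and 22.4 FPKM, and with at most 1 count in any LLC alone library it had to differ. Of the same list, Cxcr2 averaged 0.15 and 0.267 FPKM, and Ly6g did not rise (0.08 and 0.0467 FPKM). The part of these markers in the results was not tested. Ccl3, also called macrophage inflammatory protein 1-alpha, had 1, 4 and 4 counts in LLC alone and 416, 444 and 417 in LLC with BMSCs. In FPKM this was 0.03, 0.16 and 0.12 against 12.72, 13.77 and 13.03. The gene was next to undetected without BMSCs and ranked 5487 among all genes with them. Its log2 fold change of 6.99 ± 0.237 (SE, adjusted p = 5.4e-07, edgeR's quasi-likelihood test) was the largest of the 8, and the ratio of counts was 132.8 (95% interval 69.8 to 291.2).

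Ccl5, a T cell and monocyte attractant, was already present without BMSCs. It stood at 2.52, 2.18 and 3.42 FPKM for LLC alone, and at 10.23, 10.44 and 9.99 FPKM in LLC with BMSCs, with a nearly constant level in the second group. The mean went from 2.71 ± 0.641 to 10.2 ± 0.225 FPKM (SD, n = 3), and the log2 fold change was 1.88 ± 0.16 (SE, adjusted p = 4.35e-05, edgeR's quasi-likelihood test).

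Ccl6 and Ccl9 are rodent chemokines made mainly by myeloid cells, and here they stayed low even after they rose. Ccl9 measured 0.25, 0.13 and 0.14 FPKM for LLC alone, against 1.46, 1.93 and 1.6 FPKM with BMSCs. All libraries with BMSCs were above 1 FPKM, and the log2 fold change was 3.22 ± 0.242 (SE, adjusted p = 2.26e-05, edgeR's quasi-likelihood test). Its estimated counts were whole numbers in 1 of 6 libraries, while those of the other 9 genes were whole in all 6. Its level thus carries an uncertainty of read assignment, apart from that of low counts in genes such as Ccl6. No window of 100 bases was shared with another gene, so the source of the fractions is not known. Ccl6 had 2, 0 and 2 counts in LLC alone and 26, 37 and 24 in LLC with BMSCs. It never reached 1 FPKM, and its ratio of counts was 20.4 (95% interval 7.67 to 76.4, adjusted p = 0.000193 by edgeR's quasi-likelihood test).

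Fractalkine, encoded by Cx3cl1, was expressed in all libraries and rose by a factor of 2.09. It stood at 2.36, 2.91 and 2.18 FPKM for LLC alone, and at 5.64, 4.97 and 5.1 FPKM in LLC with BMSCs, without overlap. The mean went from 2.48 ± 0.38 to 5.24 ± 0.355 FPKM (SD, n = 3), with a log2 fold change of 1.06 ± 0.117 (SE, adjusted p = 0.000157, edgeR's quasi-likelihood test). The genes of the proteases that shed it rose less, Adam17 by a log2 fold change of 0.6 (adjusted p = 0.000178) and Adam10 by 0.28 (adjusted p = 0.0259), both by the same test and both named after their values were seen.

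**Figure D2:**
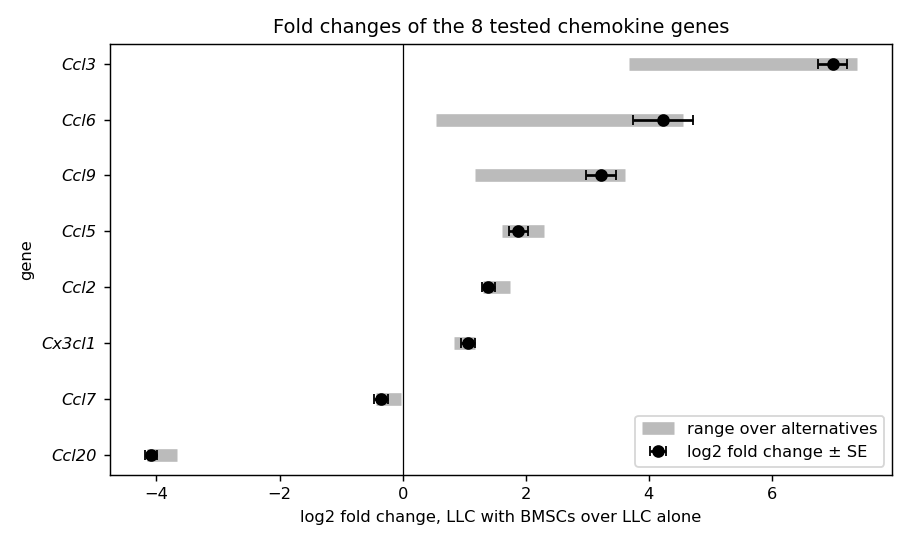
Log2 fold change of LLC with BMSCs over LLC alone (horizontal axis) for the 8 tested chemokine genes, as points with SE bars from edgeR's quasi-likelihood fit, over grey bars that span the values under the other processing settings. Ccl3 is farthest to the right at 6.99 and Ccl20 farthest to the left at -4.09, and the grey bar of Ccl7 ends at -0.03.

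Summed over the 10 genes, the chemokine level was 447.8, 427.8 and 546.0 FPKM for LLC alone, against 941.0, 1046.7 and 1018.5 FPKM with BMSCs. The sum was 2.11 times higher with BMSCs (473.9 ± 63.3 against 1002.1 ± 54.7 FPKM, SD, n = 3, exact permutation p = 0.1, the smallest possible), and most of it was Ccl2. The share of Ccl2 was 71.5% ± 1.18 in LLC alone and 90.1% ± 0.115 in LLC with BMSCs. Meanwhile the share of Ccl7 went from 17.3% ± 0.721 to 6.52% ± 0.269 and that of Ccl20 from 9.97% ± 0.595 to 0.279% ± 0.0125 (SD, n = 3). At the same time the number of the 10 genes with a mean of at least 1 FPKM was 5 in LLC alone and 7 in LLC with BMSCs, so that more of the genes passed that level while a single one made up a larger part of the total.

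**Figure D3:**
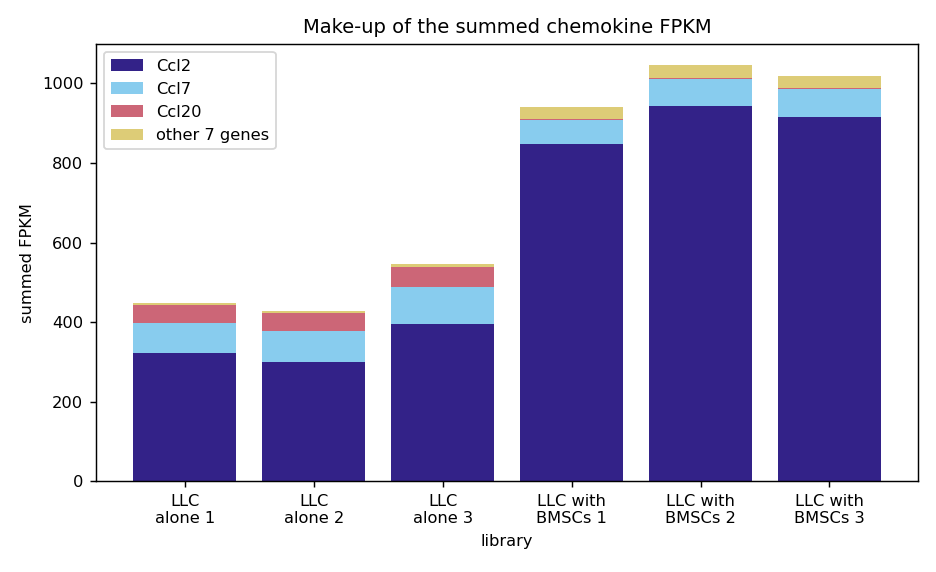
Summed FPKM of the chemokine genes (vertical axis, from 0) in each of the 6 libraries, stacked by Ccl2, Ccl7, Ccl20 and the remaining genes. The 3 libraries with BMSCs reach 941.0 to 1046.7 FPKM, nearly all of it Ccl2, and the band of Ccl20 is thin in them.

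To place the members among their relatives, the remaining CC ligands were counted. Of 14 on the list, 8 were in the files and 4 could be tested. Of these, 2 rose and 2 fell, against 31.5% and 31.3% of all tested genes. Ccl4, a close relative of Ccl3, stood at 0.07, 0 and 0.14 FPKM for LLC alone, against 7.99, 6.87 and 8.33 FPKM with BMSCs, with a log2 fold change of 6.51 ± 0.338 (SE, adjusted p = 3.72e-06, edgeR's quasi-likelihood test). With 6 counts over the 3 LLC alone libraries, Ccl4 passed the filter through LLC with BMSCs only, as Ccl3 did, so it had to differ. Within the libraries with BMSCs the ratio of Ccl3 to Ccl4 FPKM was 1.72 ± 0.246 (SD, n = 3). Ccl25, known as a thymus and gut chemokine, fell from 13.1 ± 2.01 to 8.55 ± 0.781 FPKM (log2 fold change -0.61, adjusted p = 0.00254, same test). The other two tested ligands, named after their values were seen, were the Ccr4 ligand Ccl22, with 0 counts in LLC alone and 75 in LLC with BMSCs and thus under the same caution (at least 7.8-fold higher against 3 counts per library), and the mucosal chemokine Ccl28, which fell from 0.707 to 0.433 FPKM on average (adjusted p = 0.00104, same test).

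Of the receptors that would read these ligands, those found were scarce in the sorted cells. Ccr6, the receptor of Ccl20, was the listed receptor that was not found, so its level is not known. Of 15 on the list, 14 were in the files and 5 could be tested, with 2 higher and 1 lower in LLC with BMSCs, against 31.5% and 31.3% of all tested genes, and the summed level of the 14 was 0.66 to 1.0 FPKM for LLC alone and 2.17 to 2.31 FPKM in LLC with BMSCs. Ccrl2, an atypical receptor that binds chemerin and does not signal, was the one to reach 1 FPKM in a group, going from 0.06 ± 0.0346 to 1.0 ± 0.0361 FPKM (SD, n = 3, log2 fold change 4.01, adjusted p = 1.52e-05, edgeR's quasi-likelihood test). The other two called receptors, named after their values were seen, were Ccr1, a receptor of Ccl3, at 0.01 and 0.413 FPKM on average (adjusted p = 5.63e-06, with 1 count in each LLC alone library, so that it, like Ccrl2 with 2 to 8, passed the filter through the other group only), and the fractalkine receptor Cx3cr1, which fell from 0.16 to 0.0567 FPKM (adjusted p = 0.000606), both by the same test. Ccr2, the receptor of Ccl2 and Ccl7, had 0 counts in LLC alone and 11 in LLC with BMSCs and was not tested.

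Genes that display or process chemokines, such as the heparan sulfate proteoglycans that hold them at the cell surface, were counted next. Of 12 tested, 7 rose, 1 fell and 4 were not called, against 31.5% of all tested genes called higher and 31.3% lower. Of the risers, Ctsc, named after its values were seen, had at most 2 counts in any LLC alone library. It passed the filter through LLC with BMSCs only and so had to differ. The largest rise among well-expressed genes and the one fall were Hspg2, which encodes perlecan and changed by 0.99 on the log2 scale (adjusted p = 0.0124), and the syndecan Sdc2, with -0.87 (adjusted p = 9.77e-06), both by edgeR's quasi-likelihood test. Hspg2 has a long transcript (14275.7 bases) and read 39.42, 40.5 and 19.18 FPKM in LLC alone. The low value is that of replicate 3, which was low among the longest genes. Among 16 tested genes that carry the receptor signal, 10 rose and 1 fell, to be set against the same shares. The fall, named after its values were seen, was that of Elmo1, from 0.51 to 0.0633 FPKM on average. Its log2 fold change was -3.01 (adjusted p = 2.13e-05, edgeR's quasi-likelihood test). Of the risers, Dock2 and Rac2, named after their values were seen, had at most 8.02 counts in any LLC alone library. They too passed the filter through LLC with BMSCs only and had to differ. Rgs16, which shuts off G protein signalling, went from 2.73 ± 0.222 to 8.52 ± 0.421 FPKM (SD, n = 3, adjusted p = 4.36e-06, same test).

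Of 15 genes that induce chemokine transcription or bind chemokine mRNA, all were tested. Of these, 9 rose and 4 fell, against 31.5% and 31.3% of all tested genes. Irf1, an interferon-induced transcription factor, stood at 7.57, 8.18 and 7.63 FPKM for LLC alone, and at 46.12, 48.18 and 47.65 FPKM in LLC with BMSCs. Its log2 fold change was 2.58 ± 0.061 (SE, adjusted p = 1.02e-07, edgeR's quasi-likelihood test), and the groups were far apart. Nfkbiz, the NF-kappaB cofactor I-kappaB-zeta, fell from 28.3 ± 1.38 to 18.5 ± 0.657 FPKM (SD, n = 3, adjusted p = 6.7e-05, same test). The median log2 fold changes were 0.29, 0.38 and 0.36 for display, signalling and induction, against 0.01 over all tested genes.

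Because members moved in opposite directions, their promoters were read for known motifs. Shown are the gene that fell most, the gene that rose most and Ccl9, which held the most matches. The RefSeq promoter table (GRCm38.p6) had entries for Ccl3, Ccl6, Ccl8, Ccl9, Ccl20 and Cx3cl1, which is 6 of the 10, each from 250 bases before to 50 after the start. Both strands were searched for the NF-kappaB motif (GGGA and CC with any 4 bases between), the interferon response motif (GAAA and GAAA with any 2 bases between), the AP-1 motif TGANTCA, the STAT motif TTCNNNGAA and the TATA box TATAAA. These letters occur in 20.7%, 3.44%, 7.81%, 8.3% and 13.6% of all 32851 promoters in that table. The 150 bases before the start are those of Ccl20 (chr1:83116616-83116765, plus strand), Ccl3 (chr11:83649379-83649528, minus strand) and Ccl9 (chr11:83578637-83578786, minus strand), 5′ to 3′ in the direction of the gene, with matches in capitals.
Ccl20: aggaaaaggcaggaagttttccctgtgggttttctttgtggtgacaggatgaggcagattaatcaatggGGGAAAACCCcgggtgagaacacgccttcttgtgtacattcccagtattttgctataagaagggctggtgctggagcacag
Ccl3: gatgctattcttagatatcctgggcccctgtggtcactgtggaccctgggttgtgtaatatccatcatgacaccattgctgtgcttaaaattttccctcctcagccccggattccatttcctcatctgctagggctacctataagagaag
Ccl9: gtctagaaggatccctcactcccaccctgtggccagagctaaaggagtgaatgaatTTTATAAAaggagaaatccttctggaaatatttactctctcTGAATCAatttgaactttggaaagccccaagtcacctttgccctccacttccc

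The Ccl20 promoter held the NF-kappaB letters GGGAAAACCC at -81 to -72 from the start, the one match to that motif among the 6. That of Ccl9 held the AP-1 letters TGAATCA at -53 to -47 and TATAAA at -92 to -87, where the reverse strand also matches from -94 to -89, and once more on the reverse strand at -224 to -219, outside the printed bases. TATAAA was also present in Ccl8 at -32 to -27 and in Cx3cl1 at -6 to -1, directly before the start, while Ccl3 and Ccl6 had none of the 5 motifs. A match describes letters in a window of DNA and is not a bound site.

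Messages of other cell types moved with the same groups, and for a sort on 1 reporter they are given beside the members. Calls here and in the next paragraph are to be set against 31.5% of all tested genes called higher and 31.3% lower. The 4 leukocyte markers all rose, though Ptprc and Cd53 passed the filter through LLC with BMSCs only. The summed level of the 4 lay between 0.52 and 0.68 FPKM without BMSCs and between 4.03 and 4.19 FPKM with them. Ptprc, which encodes CD45, averaged 0.03 and 0.45 FPKM. The neutrophil list rose in 6 of 6 tested genes of the 9 listed in the files, although S100a8, S100a9, Camp, Ngp and Mpo had at most 2 counts in any LLC alone library and so had to differ once they passed the filter, with sums between 0.28 and 0.63 FPKM without BMSCs and between 43.3 and 51.9 FPKM with them, led by S100a9 at 22.4 FPKM and S100a8 at 20.2 FPKM with BMSCs, whereas Ly6g was at 0.08 and 0.0467 FPKM. Of the macrophage list, 6 of 8 tested genes rose and 1 fell, with sums of 18.0 to 21.2 FPKM and 21.5 to 23.0 FPKM. Its defining gene Adgre1, which encodes F4/80, had 0 counts in LLC alone and averaged 0.477 FPKM with BMSCs, and Itgam averaged 0.00667 and 1.17 FPKM. The more abundant Cd68 fell from 5.55 to 3.03 FPKM (log2 fold change -0.89, adjusted p = 0.000501, edgeR's quasi-likelihood test), Cd14 averaged 9.49 and 10.1 FPKM and was not called, and C1qa, C1qb and C1qc were at or under 0.0533 FPKM on average. All 8 tested genes of the stromal and BMSC list rose. The sums lay between 79.1 and 90.5 FPKM without BMSCs and between 179.2 and 186.3 FPKM with them. Of this list, 5 genes already averaged at least 1 FPKM without BMSCs. These were Col3a1 at 41.2 FPKM, Eng at 28.7, Pdgfrb at 6.59, Pdgfra at 5.78 and Ly6a at 3.57 FPKM. Col3a1 was the most abundant of the list in both groups, with a log2 fold change of 1.26. With BMSCs, Eng averaged 34.8 FPKM and Ly6a 26.0 FPKM. Col1a1 averaged 0.0133 and 2.0 FPKM, while Thy1 and Cxcl12 were at or under 0.09 FPKM.

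Lymphocyte markers were at 0.15 to 0.28 FPKM in sum over all 6 libraries and none was tested, the 2 tested endothelial markers were not called, with sums of 0.24 to 0.4 FPKM, and the dendritic cell list had 2 genes higher and 1 lower of 4 tested, with sums of 2.98 to 4.19 FPKM. Of the epithelial list, both tested genes rose, Krt8 and Krt18. Adgre1, Itgam, Cd53 and Col1a1, with at most 5 counts in any LLC alone library, also had to differ once they passed the filter. Ptprc, Mrc1 and Krt18, with at most 9 counts in any LLC alone library, likewise passed through LLC with BMSCs only. The leukocyte markers that rose did so together with Ccl3, Ccl6, Ccl4 and Ccl22, each nearly or wholly undetected in LLC alone, as well as with Ccl2, Ccl5, Ccl9 and Cx3cl1, which were detected in each library. Their part in the result was not tested, nor was that of the stromal markers.

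**Figure D4:**
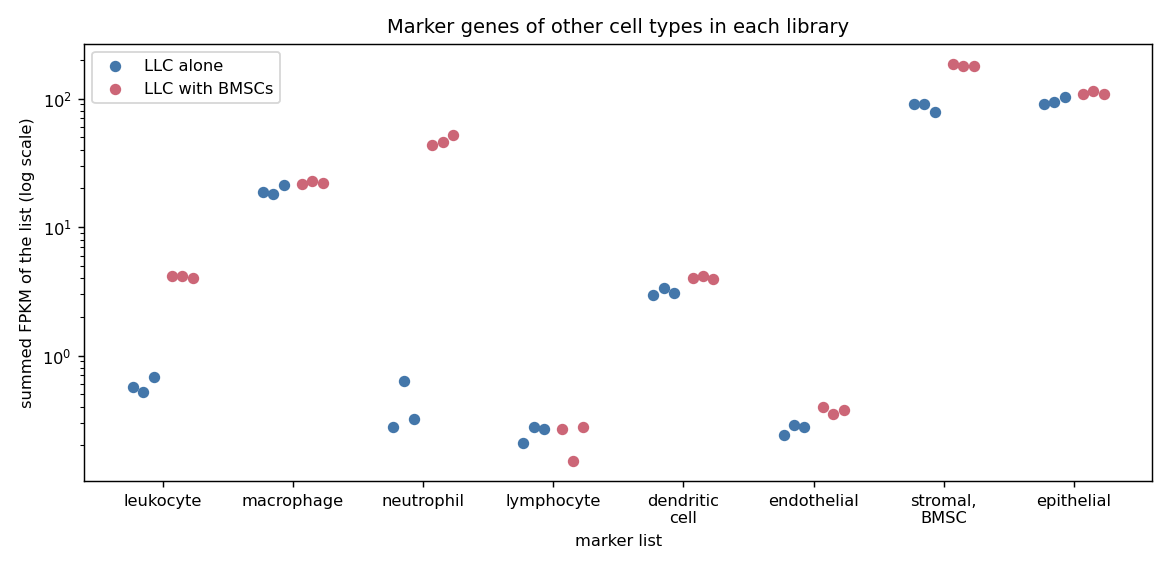
Summed FPKM of the marker list of each cell type (vertical axis, log scale) in the 3 libraries of LLC alone (blue) and the 3 of LLC with BMSCs (red). The neutrophil list is at most 0.63 FPKM without BMSCs and at least 43.3 FPKM with them, while the lymphocyte list stays at or under 0.28 FPKM in both groups.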

How the data were processed

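RNA from sorted RFP-positive LLC cells was measured in 6 libraries, 3 in each group, with groups and replicate numbers taken from the labels. Estimated counts of each gene and transcript were deposited, not normalized and not always whole (21.9% to 23.22% of genes in a library), and the authors' FPKM values stood beside them in the deposited files. The submitters' processing notes name HISAT, StringTie, Cufflinks and GATK without versions, and the build mm8. The counting program, its strand setting and its treatment of shared reads are not given in the sources used here. RNA was extracted with TRIzol. The paper names the BGISEQ-500 and the labels name Illumina protocols, and the files do not settle which applies.

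Estimated counts were rounded to whole numbers, filtered by filterByExpr, scaled by TMM and tested by edgeR's quasi-likelihood test (edgeR 4.0.16 in R 4.3.3) with Benjamini-Hochberg adjustment over all 13353 tested genes. The threshold was an adjusted p under 0.05. Levels are the authors' FPKM, compared by two-sided exact permutation tests (SciPy 1.17.1). Count ratios were scaled by the effective library sizes, with exact 95% conditional binomial intervals, and shares have 95% Wilson intervals. All cover counting error only, and those of the shares leave out the uncertainty of assigning reads to a transcript. A floor of 3 counts per library was used. Depth was 33476347 to 46189113 counts per library, and the common biological coefficient of variation was 9.92%. Of the genes, 1151 carried no symbol. Alternatives used DESeq2 1.42.0, limma 3.58.1, other scalings, filters and thresholds, a length correction, a replicate block and leaving out libraries. The steps were tested on simulated data.

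The members and all gene lists were chosen with earlier results of these data known. Named in addition to the members were other CC ligands and receptors with a mean of at least 1 FPKM in a group and, from the lists of display, signalling and induction, the called gene with the largest rise and the largest fall among those with at least 100 normalized counts on average. Sequences were read from GENCODE M21 (GRCm38) and RefSeq (GRCm38.p6) by symbol, not from the libraries. The files carry no gene coordinates. Proteins were not used here.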

Additional observations from a re-analysis of the deposited data

How the results depend on the processing

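The count of chemokine genes called higher was 6 with DESeq2, with the other scalings, without a filter, with a correction for transcript length, with the replicate block, under the stricter threshold and with each library left out (range 6 to 6). It was 5 with limma on filtered FPKM, which tested 7 of the genes, and 4 where 10 counts were required in every library, which left Ccl3 and Ccl6 untested. The count called lower was 1 in place of 2 with the length trend removed, with the replicate block and the length trend removed, and under the stricter threshold (an adjusted p under 0.001 with a change of 1 or more on the log2 scale), it ranged from 1 to 2 with a library left out, and it was 3 without a filter in edgeR and with the closest libraries summed, where Ccl11 was called too. With limma on unfiltered log2(FPKM + 1) it stayed at 2, since Ccl11 was called (adjusted p = 0.00977) while Ccl7 was not (adjusted p = 0.0579). Where it was 1, the lost gene was Ccl7, whose log2 fold change ran from -0.43 to -0.03 over its alternatives with adjusted p from 0.00824 to 0.648. None of the 8 tested members changed sign. With the length trend removed, the log2 fold change was 1.74 in place of 1.39 for Ccl2 and 2.29 in place of 1.88 for Ccl5. For Ccl20 it was -3.76 in place of -4.09, and for Cx3cl1, a longer transcript, 1.04 in place of 1.06. Over all tested genes the stricter threshold, by construction, called 910 higher and 723 lower, and leaving out a library gave 3617 to 4736 higher and 3581 to 4539 lower. The log2 fold change of Ccl6 ranged from 0.54 to 4.55 that of Ccl9 from 1.18 to 3.62 and that of Ccl3 from 3.68 to 7.38, the low ends with limma on log2(FPKM + 1), a scale that compresses low values.

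Replicate numbers did not pair the libraries: deviations of same-numbered libraries correlated at 0.0763, -0.106 and 0.0572. With the replicate number as a block, 4161 genes were called higher and 4058 lower, and 6 and 2 of the chemokine genes. Depth limited Ccl8, Ccl11 and Ccl6, which had at most 37 counts in any library.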
